A study of Mus musculus with 79 samples.

Results

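Delayed nerve repair was examined here through 10 genes of tumor necrosis factor (TNF) signaling and of the feedback loop of the transcription factor NF-kB. They are Tnf, Tnfrsf1a, Tnfrsf1b, Tnfaip3, Nfkbia, Nfkbiz, Nfkb1, Nfkb2, Rel and Relb, 10 of the 23361 genes in the count files, and they were taken from the files by symbol. All 10 passed the minimum level for testing in each comparison.

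RNA was sequenced from S100β-eGFP mice, in which the human S100β promoter drives a green fluorescent protein in Schwann cells (SC). In these mice a freshly cut common peroneal nerve was joined to the distal tibial stump through a silicone conduit, either at once (immediate repair) or after the tibial nerve had been left cut for 8 weeks (delayed repair). The immediate group had a sham incision 8 weeks before its repair, and ages were not given in the sources used here. There were 79 libraries from 32 mice of both sexes. Macrophages and SC were sorted from the digested bridge of 1 mouse per library, at 1000 cells each, 5 or 14 days after repair. The distal stump was sequenced as whole tissue at day 5. Macrophage libraries numbered 9 delayed and 8 immediate at day 5 and 7 and 8 at day 14, SC libraries 9 and 7 and then 7 and 8, and stump libraries 9 and 7.

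TNF is a cytokine made mainly by macrophages and other immune cells, and it binds 2 receptors, TNFR1 and TNFR2. Through TNFR1 it activates kinases that release NF-kB dimers from their cytoplasmic inhibitors, and the freed dimers switch on inflammatory genes together with the genes of their own inhibitors. In injured nerve this loop is part of the early inflammatory response that accompanies degeneration of the distal stump and recruitment of macrophages.

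The inhibitors and precursor subunits of this loop are known as targets of NF-kB, so the promoters of the members were searched on both strands for the motif GGG, any 3 bases, TTCC. RefSeq windows on GRCm38.p6, from 250 bases before to 50 bases after each start site, matched 7 of the 10 members. The motif was present in at least 1 window of 4 of these 7 genes and in 6.31% of all 27025 genes with a window. The 4 genes with a match are shown, and they encode 2 inhibitors and 2 subunits of the loop. Nfkbiz, Nfkb1 and Relb had no window and were not searched. Each line gives the 150 bases before the start site of the first window listed, in the direction of the gene, with matches in capitals.
Tnfaip3, chr10:19015411-19015560, minus strand: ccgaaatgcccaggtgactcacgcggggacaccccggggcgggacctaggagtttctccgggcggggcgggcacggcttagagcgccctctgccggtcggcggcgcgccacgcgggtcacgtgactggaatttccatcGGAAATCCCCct
Nfkbia, chr12:55492648-55492797, minus strand: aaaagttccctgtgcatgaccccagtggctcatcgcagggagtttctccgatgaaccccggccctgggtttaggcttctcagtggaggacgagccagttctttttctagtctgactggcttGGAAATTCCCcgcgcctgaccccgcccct
Nfkb2, chr19:46304587-46304736, plus strand: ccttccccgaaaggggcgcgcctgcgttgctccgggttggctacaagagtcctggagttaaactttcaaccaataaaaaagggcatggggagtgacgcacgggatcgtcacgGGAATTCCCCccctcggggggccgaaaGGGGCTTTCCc
Rel, chr11:23770970-23771119, minus strand: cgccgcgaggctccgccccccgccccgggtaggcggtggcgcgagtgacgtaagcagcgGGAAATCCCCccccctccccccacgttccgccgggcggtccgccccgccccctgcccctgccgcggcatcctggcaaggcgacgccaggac

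Counted from the start site, where -1 is the base before it, the match of Nfkbia lay at -29 to -20 and that of Rel at -91 to -82. Within the 150 bases shown, Nfkb2 had matches at -38 to -29 and -11 to -2 and Tnfaip3 at -12 to -3. Tnfaip3 held further matches after the start site of this window and in a second window, and Nfkb2 held further ones in its other windows. The windows of Tnf, Tnfrsf1a and Tnfrsf1b held no match to these letters. A match is a description of sequence, not a measured binding site. In the GENCODE annotation of GRCm38, Nfkb2 (chromosome 19, 46304320 to 46312385) overlaps Psd and a noncoding gene on the opposite strand, and Nfkb1 (chromosome 3, 135584655 to 135691547) overlaps Gm43430, a gene model of uncertain status, on the same strand. The sorted-cell libraries do not mark strand, so reads of Nfkb2 and its opposite-strand neighbours cannot be told apart there. The other 8 members overlap no other annotated gene. They are Tnf on chromosome 17 (35199381 to 35202007), Tnfrsf1a on 6 (125349362 to 125362484), Tnfrsf1b on 4 (145213463 to 145246870), Tnfaip3 on 10 (19000910 to 19015657), Nfkbia on 12 (55489410 to 55492647), Nfkbiz on 16 (55811375 to 55838899), Rel on 11 (23736847 to 23770970) and Relb on 7 (19606217 to 19629438).

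The macrophage gate took cells positive for F4/80, CD14, CD16/32 and CD11b, and the SC gate took GFP-positive cells negative for these, after removal of granulocytes, lymphocytes, fibroblasts, endothelial cells and red blood cells by surface markers. The libraries differed in what they held before any comparison was made. Total counts ran from 14928745 to 28499407 in macrophages, from 11614940 to 30796823 in SC and from 3898778 to 9212709 in the stump, so 3 counts in the smallest library equal 0.201, 0.258 and 0.769 CPM. CPM are counts scaled to a common library size, and levels below are CPM after TMM scaling. The macrophage libraries carried their sorting markers, with 12 macrophage markers summing to between 21751 and 45314 CPM. In the libraries labelled SC, 10 SC markers summed to between 58.8 and 2725 CPM, with group medians from 258 to 1537 CPM. Stumps, which were prepared by another method, held 1449 to 3356 CPM after immediate and 148 to 880 CPM after delayed repair. In macrophage libraries the same sum had group medians from 701 to 867 CPM, so it is not particular to SC. Pmp22 on this list was lower in SC-labelled than in macrophage libraries (log2 -2.91 at day 5 and -1.53 at day 14). The other SC markers tested were higher there at both days. Of the defining SC genes, S100b ran from 0 to 38.0 CPM and Sox10 from 0 to 167 CPM in the SC-labelled libraries. Their 12 dendritic cell markers summed to between 13202 and 42581 CPM, and Ccr7, a chemokine receptor of migrating dendritic cells, ran from 1928 to 11993 CPM. They are called SC libraries below by their label. Macrophage markers in them summed to between 417 and 12418 CPM after delayed repair at day 5 and to between 337 and 4571 CPM after immediate repair, and were highest in delayed day 5 replicates 9 and 7. Neutrophil markers reached 8519 CPM in immediate day 14 replicate 3, against 9.56 to 196 CPM in all other SC libraries.

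The distal stump was the one tissue in which members passed the test between delayed and immediate repair. At day 5, 8 of the 10 members were higher after delay and none was lower, against 12.8% of all 12229 genes tested that were higher, 13.5% that were lower and 26.3% that passed in either direction. The median difference of the 10 members was 0.58 on the log2 scale, beside 0.02 over all genes. Both TNF receptors, 4 NF-kB subunits and 2 inhibitors made up the 8 (edgeR quasi-likelihood test, Benjamini-Hochberg adjusted over all genes).

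Among the ligand and receptors, Tnf ran from 1.63 to 6.75 CPM with a median of 4.15 in the 7 immediate stumps and from 4.46 to 8.41 with a median of 6.18 in the 9 delayed stumps. The groups overlapped, all 9 delayed stumps lay above the immediate mean, and the difference of 0.60 (SE 0.24) did not pass (adjusted p = 0.0776). Tnfrsf1a, the gene of TNFR1, ran from 104 to 143 CPM (median 118) after immediate and from 116 to 180 CPM (median 155) after delayed repair. It rose by 0.34 on the log2 scale (SE 0.09, adjusted p = 0.0129). Tnfrsf1b, the gene of TNFR2, which is found mainly on immune and endothelial cells, ran from 79.3 to 190 CPM (median 106) and from 143 to 238 CPM (median 166). It rose by 0.65 (SE 0.16, adjusted p = 0.00618), and 1 immediate stump, replicate 4, reached the delayed range.

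The inhibitors were uneven. Tnfaip3, which encodes A20, an enzyme that removes ubiquitin from signaling proteins downstream of TNFR1, ran from 17.4 to 44.6 CPM (median 26) after immediate and from 41.1 to 71.0 CPM (median 53.0) after delayed repair. Its rise of 0.80 (SE 0.18, adjusted p = 0.00413), or 1.75-fold, was the largest of the 10 in size. Nfkbiz, which encodes an atypical nuclear inhibitor that can also activate some NF-kB targets, ran from 54.5 to 124 CPM (median 64.6) and from 81.4 to 219 CPM (median 114) and rose by 0.74 (SE 0.23, adjusted p = 0.0254). Leaving out delayed replicate 4 or immediate replicate 2, 3, 6 or 7 put its adjusted p between 0.0523 and 0.0649. Nfkbia, the gene of IκBα, the classical cytoplasmic inhibitor, ran from 42.6 to 103 CPM (median 57.4) and from 55.6 to 106 CPM (median 94.3), and its difference of 0.38 (SE 0.18) did not pass (adjusted p = 0.117). Without immediate replicate 4, Tnf and Nfkbia passed as well, with adjusted p of 0.0238 and 0.0434. In the rest of the 16 fits that left out 1 library, neither passed. With limma-voom Nfkbia also passed (log2 0.49, adjusted p = 0.0401), in a fit where 9 of the 10 members and 36.3% of all genes passed.

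All 4 subunits passed. Relb, a subunit of the noncanonical pathway, ran from 23.8 to 34.4 CPM (median 26.8) in immediate and from 31.4 to 49.7 CPM (median 43.2) in delayed stumps. It had the smallest adjusted p of the 10, at 0.00115, with a rise of 0.56 (SE 0.11). Rel, which encodes c-Rel, a subunit prominent in lymphocytes and myeloid cells, ran from 12.8 to 19.6 CPM (median 16.5) and from 19.4 to 35.2 CPM (median 25.1), so that the lowest delayed stump fell just under the highest immediate one. It rose by 0.67 (SE 0.13, adjusted p = 0.0015). Nfkb2, the precursor of the noncanonical subunit p52, rose by 0.50 (SE 0.13, adjusted p = 0.0107), and Nfkb1, the precursor of p50, by 0.34 (SE 0.07, adjusted p = 0.00312). Nfkb1 lay between 96.9 and 124 CPM in immediate and between 118 and 156 CPM in delayed stumps.

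**Figure D1:**
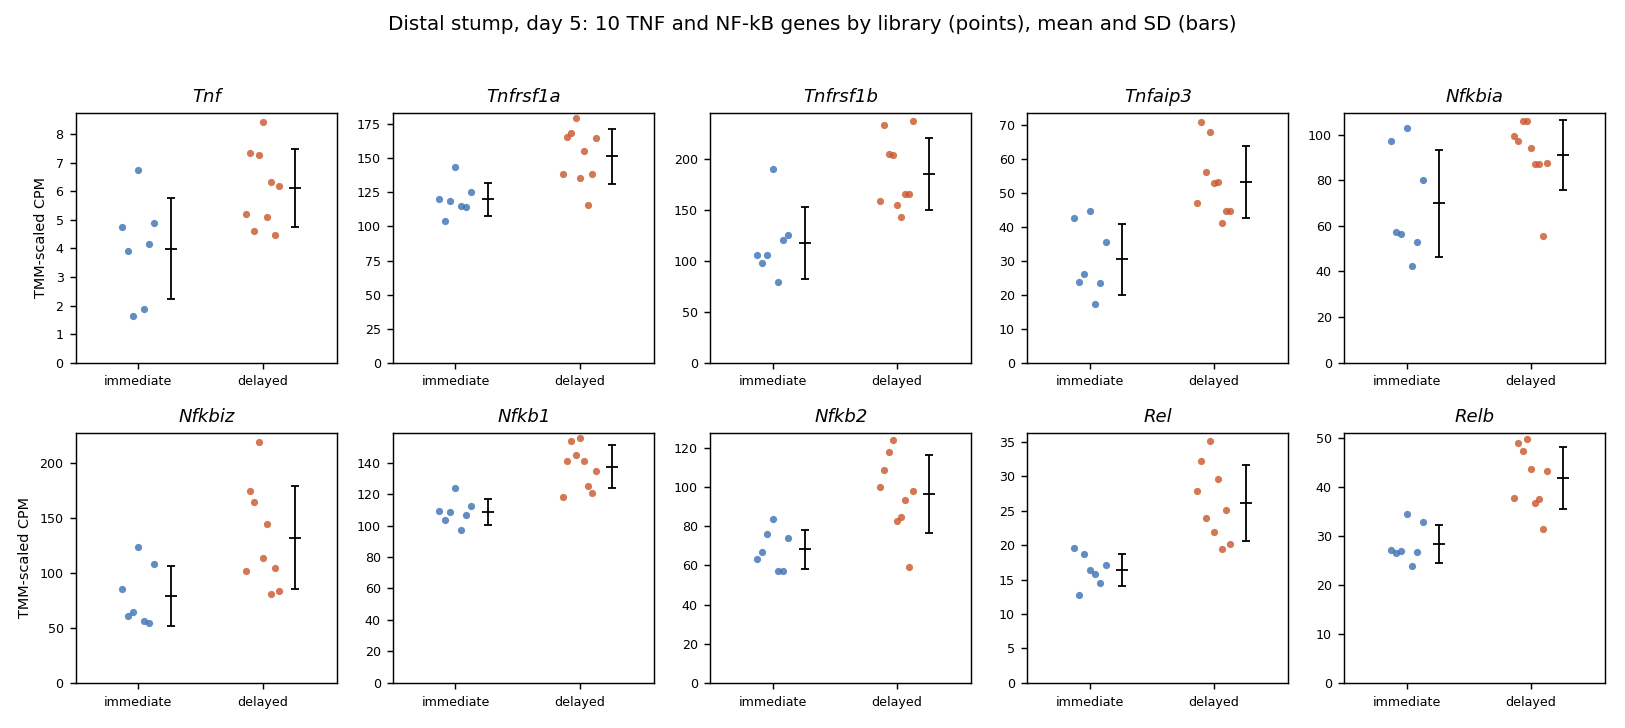
TMM-scaled CPM of the 10 genes in each distal stump library at day 5 (points), with mean and SD (bars), for 7 immediate and 9 delayed repairs. Each panel has its own axis from 0, and in all 10 panels the delayed mean is the higher one, though the groups overlap.

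Markers of other cells moved in the same stumps, and their part in these differences was not tested. In whole tissue, fewer cells of a type and less RNA per cell cannot be told apart. Of the SC markers, 8 of 9 tested were lower after delay, and their sum ran from 148 to 880 CPM in delayed and from 1449 to 3356 CPM in immediate stumps. Endothelial markers were higher in 5 of 6, summing to between 908 and 1270 CPM against 577 and 800 CPM. Dendritic cell markers were higher in 5 of 10 and summed to between 660 and 1171 CPM (median 1041) against 456 and 866 CPM (median 602). Macrophage markers were higher in 2 of 12 and summed to between 4105 and 7244 CPM (median 5639) against 1836 and 6760 CPM (median 3302). Neutrophil markers were higher in 0 of 4 tested and summed to between 88.5 and 370 CPM (median 236) against 76.8 and 369 CPM (median 135). Of the T cell markers 1 was tested, Lck, a kinase of T cell receptor signaling, and it was higher (log2 1.27, SE 0.43, adjusted p = 0.0368), with marker sums of 5.99 to 35.3 CPM (median 20.5) against 2.21 to 20.2 CPM (median 5.52). Of 7 fibroblast markers 1 was higher, Pdgfrb (log2 0.41, SE 0.10, adjusted p = 0.00735), with sums of 18441 to 64836 against 17627 to 47544 CPM. None of the markers on these 7 lists was at 0 in every stump of a group. Among 19 genes of the response to tissue dissociation, 18 were tested, none was higher and 3 were lower.

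Other genes of the pathway were examined on lists chosen with earlier results of these data known, and their counts stand beside the 12.8% of all stump genes that were higher and the 13.5% that were lower. Of 23 genes of the receptor complex and its kinases, 6 were higher in delayed stumps and 2 lower. The 3 with the smallest p were Birc2, by 0.66 (SE 0.11), Traf1, by 1.21 (SE 0.22), and Birc3, by 0.73 (SE 0.15), all coding for adaptors or ubiquitin ligases of the TNF receptor complex. Of 12 other subunits and inhibitors, 4 were higher and none lower, with N4bp1 higher by 0.44 (SE 0.09), Nfkbie, a further IκB gene, by 0.85 (SE 0.19), and Tnip3, a partner of A20, by 1.09 (SE 0.32). Of 11 tested ligands, receptors and kinases of the noncanonical pathway, 3 were higher and 1 lower. Tnfrsf12a, the TWEAK receptor, fell by 1.40 (SE 0.24), while Tnfrsf11a, the RANK gene, rose by 0.76 (SE 0.13) and Map3k14, which encodes the kinase NIK, by 0.63 (SE 0.13). Of 24 tested inflammatory target genes, 4 were higher and 2 lower, a share near that of all genes. Irf1 rose by 0.73 (SE 0.17) and Icam1, an adhesion molecule, by 0.45 (SE 0.13), whereas Gadd45b, a stress gene, fell by 0.64 (SE 0.17).

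In macrophages of the bridge no member passed between delayed and immediate repair. At day 5, 0 of 10 passed with edgeR, with DESeq2 and with limma-voom, against 0.0357%, 0.202% and 0.0476% of 8409 genes in turn. With edgeR 3 of 10 had an unadjusted p under 0.05, against 5.17% of all genes. The fitted difference was negative for 9 of the 10, with a median of -0.23 beside 0.01 over all genes. Nfkb1 lay between 89.6 and 154 CPM (median 110) in 9 delayed and between 129 and 206 CPM (median 137) in 8 immediate libraries. Its difference was -0.42 (SE 0.13, unadjusted p = 0.00286, adjusted p = 0.492), and all 9 delayed libraries lay below the immediate mean. Nfkbia lay between 2146 and 2889 CPM (median 2496) and between 2423 and 3773 CPM (median 3005), a difference of -0.29 (SE 0.10, adjusted p = 0.70) with all 9 delayed libraries below the immediate mean. Tnfaip3 differed by -0.38 (SE 0.16, adjusted p = 0.89).

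Tnf itself was variable among macrophages of day 5. It ran from 310 to 1629 CPM (median 1066) after delayed and from 374 to 2169 CPM (median 1499) after immediate repair. The difference was -0.47, with a 95% interval from -1.02 to 0.08 and an adjusted p of 0.971. At day 14, 0 of 10 members passed with the 3 tools and 0% of 8589 genes passed with edgeR. Here 0 had an unadjusted p under 0.05, against 2.21% of genes, and the fitted differences ran from -0.08 for Nfkb1 to 0.31 for Rel. The 95% interval for Nfkbia at day 14 was -0.30 to 0.21 and that for Tnf was -0.28 to 0.75. None of the 4 other pathway lists had a gene past the threshold in macrophages at either day, and the smallest p at day 5 was that of Ier3, an early response gene, which differed by -0.50 (SE 0.12, adjusted p = 0.297).

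**Figure D2:**
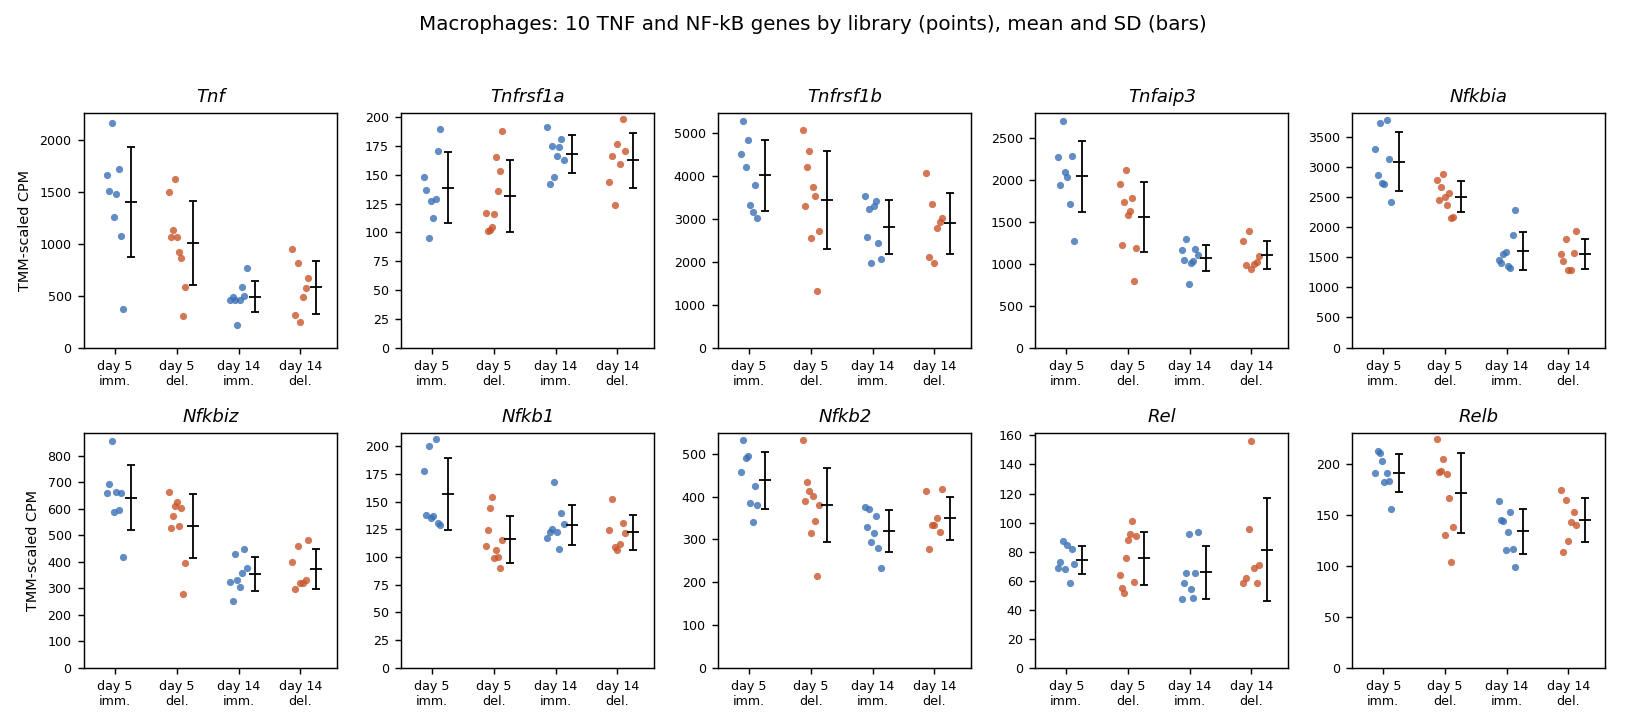
TMM-scaled CPM of the 10 genes in each macrophage library (points), with mean and SD (bars), for immediate (imm.) and delayed (del.) repair at days 5 and 14, each panel with its own axis from 0. Nfkbia separates the days in both repair groups, and immediate and delayed libraries overlap in all panels.

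SC libraries showed no member past the threshold between delayed and immediate repair either. At day 5, 0 of 10 passed with edgeR, DESeq2 or limma-voom and 0 had an unadjusted p under 0.05, against 0% and 5.26% of 9604 genes with edgeR. Tnf ran from 22.5 to 400 CPM (median 150) in 9 delayed and from 15.1 to 321 CPM (median 59.0) in 7 immediate libraries, with a difference of 0.62 (SE 0.62, adjusted p = 0.965). The highest Tnf values of the delayed group, 400 and 321 CPM, stood in replicates 9 and 7, the libraries highest in macrophage markers, and without them the difference was 0.10 (SE 0.62). The remaining 9 members differed by between -0.45 for Nfkb1 and 0.26 for Tnfrsf1a. At day 14, 0 of 10 passed with the 3 tools and 0 at an unadjusted p under 0.05, against 0% and 3.65% of 10226 genes with edgeR, and the differences ran from -0.45 for Tnf to 0.16 for Tnfaip3. None of the other pathway lists held a gene past the threshold in SC libraries at either day. The smallest p at day 5 was that of Tnfrsf12a, with -1.24 (SE 0.39, adjusted p = 0.805).

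In the sorted cells, members passed the test between day 5 and day 14, and the direction was down for each that did with edgeR as described, while Tnfrsf1a passed as higher under some alternatives. In macrophages after immediate repair, 7 of the 10 fell between day 5 and day 14 and none rose, against 6.01% of 8507 genes that fell, 5.33% that rose and 11.3% that passed in either direction. The median difference was -0.47 beside 0.01 over all genes. Tnf fell from between 374 and 2169 CPM (median 1499) to between 220 and 765 CPM (median 475), a drop of 2.78-fold (log2 -1.48, SE 0.26, adjusted p = 0.00122). Only the lowest day 5 library, at 374 CPM, lay within the day 14 range.

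The inhibitors fell with the ligand. Nfkbia ran from 2423 to 3773 CPM at day 5 and from 1319 to 2276 CPM at day 14, without overlap (log2 -0.90, SE 0.13, adjusted p = 0.000162). Tnfaip3 ran from 1279 to 2710 CPM and from 759 to 1293 CPM (log2 -0.89, SE 0.13, adjusted p = 0.000206), and Nfkbiz from 419 to 856 CPM and from 251 to 448 CPM (log2 -0.82, SE 0.13, adjusted p = 0.000548). The 3 inhibitor genes thus each fell by between 1.76 and 1.87-fold. Relb fell by 0.48 (SE 0.10, adjusted p = 0.00346), Nfkb2 by 0.42 (SE 0.11, adjusted p = 0.0156) and Tnfrsf1b by 0.47 (SE 0.14, adjusted p = 0.0376).

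Tnfrsf1b was the least secure of the 7. Leaving out any of day 5 replicates 1, 2, 3 and 4 or day 14 replicates 2, 4, 7 and 8 put its adjusted p between 0.0584 and 0.0713. It also missed the threshold with library size scaling (log2 -0.31, adjusted p = 0.101), with no filter on low counts (adjusted p = 0.0663) and with the replicate block (adjusted p = 0.0523). With library size scaling Nfkb2 differed by -0.26 (adjusted p = 0.0741) and did not pass either. Rel and Nfkb1 did not pass, at -0.13 (SE 0.15) and -0.24 (SE 0.12). Tnfrsf1a had a positive difference of 0.31 (SE 0.13, adjusted p = 0.127), with all 8 day 14 libraries above the day 5 mean, and passed without day 5 replicate 8 (adjusted p = 0.0289), with library size scaling (adjusted p = 0.0453) and with limma-voom (adjusted p = 0.0468).

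Macrophages after delayed repair showed 1 member past the threshold. Nfkbia fell from between 2146 and 2889 CPM (median 2496) to between 1283 and 1943 CPM (median 1551), again without overlap (log2 -0.67, SE 0.10, adjusted p = 0.00083), against 3.13% of 8529 genes that fell, 3.28% that rose and 6.41% that passed. Tnf ran from 310 to 1629 CPM at day 5 and from 250 to 956 CPM at day 14, and its difference of -0.77 (SE 0.30) did not pass (adjusted p = 0.13). Nfkbiz differed by -0.50 (SE 0.16, adjusted p = 0.0645) and Tnfaip3 by -0.48 (SE 0.16, adjusted p = 0.0855). DESeq2 and limma-voom each passed 3 of the 10, against 10.4% and 11.96% of all genes with these tools. Without day 5 replicate 8, 4 of 10 passed, against 7.91% of genes, and without day 5 replicate 9 or day 14 replicate 8, 2 of 10, against 6.53% and 6.01%. Tnfrsf1a had a positive difference of 0.32 (SE 0.15, adjusted p = 0.201) and passed as higher at day 14 with a sex covariate (log2 0.40, adjusted p = 0.0451), where 7.89% of all genes passed.

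The change over time was not shown to differ between the repair groups. The interaction of repair and day passed for 0 of 10 members with edgeR and DESeq2, against 0.0223% and 0.101% of 8949 genes in turn. With edgeR 1 of 10 had an unadjusted p under 0.05, against 3.61% of genes. That member was Nfkb1, at 0.35 (SE 0.16, unadjusted p = 0.0433, adjusted p = 1). Tnf had the largest estimate, 0.71 (SE 0.41), with a 95% interval from -0.10 to 1.52. All 10 estimates were positive, and they share the libraries of both day comparisons and so are not separate results.

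Of the inflammatory target genes in macrophages, 15 of 26 fell and none rose after immediate repair, where 6.01% of all genes fell, and 7 fell and 2 rose after delayed repair, where 3.13% fell and 3.28% rose. After immediate repair the smallest p were those of Il1b, the gene of interleukin 1β (log2 -1.33, SE 0.17), Ccl2, a monocyte chemokine (log2 -1.66, SE 0.22), and Ptgs2, the gene of cyclooxygenase-2 (log2 -2.40, SE 0.32). After delayed repair Ccl2 fell by 1.13 (SE 0.20), while Marcks rose by 1.37 (SE 0.26) and Vcam1 by 1.36 (SE 0.28). Of 21 tested genes of the receptor complex, 3 passed after immediate repair, near the 11.3% of all genes, namely Birc3, which fell by 0.41, Traf1, by 0.69 and Cflar, an inhibitor of caspase-8, by 0.40. After delayed repair 1 of the 21 passed, Traf5, which rose by 1.23 (SE 0.24). The other inhibitors and subunits held 1 gene that fell, Nfkbib, by 0.78 (SE 0.11) after immediate repair. Tnfsf9, the ligand 4-1BBL, fell in both repair groups, by 2.22 (SE 0.20) and 1.70 (SE 0.31).

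Genes of the dissociation response and other markers moved with time in the same macrophages. Dissociation genes fell in 4 of 19 after immediate and 1 of 19 after delayed repair, and their sum ran from 11683 to 17067 CPM at day 5 and from 9249 to 13134 CPM at day 14 after immediate repair. Of 12 macrophage markers, 1 rose and 3 fell after immediate repair, with sums of 31914 to 42639 and 32629 to 45314 CPM. Neutrophil markers fell in 2 of 3 tested in both groups, and dendritic cell markers rose in 2 of 4 in both, with sums after immediate repair that went from between 1171 and 3358 to between 7114 and 12636 CPM. Of the endothelial markers 2 were tested, and Pecam1 fell in both groups (log2 -1.17, SE 0.26, adjusted p = 0.00628 after immediate and log2 -1.64, SE 0.22, adjusted p = 0.000161 after delayed repair). Kdr did not pass in either group (adjusted p = 0.79 and 0.54), and the remaining endothelial markers were under the minimum level for testing. Endothelial sums went from between 25.9 and 66.6 to between 16.7 and 37.4 CPM after immediate repair and, without overlap, from between 39.2 and 77.2 to between 21.5 and 33.8 CPM after delayed repair. S100b and Sox10 never exceeded 1.83 CPM in a macrophage library. The part of these changes in the members' values was not tested.

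In SC libraries each member that passed over time was lower at day 14, and the number that passed depended on the setting. After immediate repair 4 of 10 fell and none rose, against 3.10% of 10016 genes that fell, 0.719% that rose and 3.81% that passed. Tnfaip3 went from between 609 and 2040 CPM (median 1229) to between 321 and 722 CPM (median 473), a log2 difference of -1.40 (SE 0.26, adjusted p = 0.00887). Tnfrsf1b went from between 852 and 1909 CPM to between 321 and 767 CPM without overlap (log2 -1.04, SE 0.20, adjusted p = 0.011). Nfkbiz fell by 1.06 (SE 0.19, adjusted p = 0.00863) and Rel by 0.77 (SE 0.19, adjusted p = 0.0315).

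Tnfaip3, Tnfrsf1b and Nfkbiz passed in all 15 fits that left out 1 library, while Rel missed the threshold in 7 of them, with adjusted p up to 0.0667, namely without day 5 replicate 2, 3, 4 or 7 or day 14 replicate 1, 3 or 7. Rel also missed it with library size scaling (log2 -0.56, adjusted p = 0.101). Relb (log2 -0.998, SE 0.27, adjusted p = 0.0512) and Nfkbia (log2 -0.72, SE 0.22, adjusted p = 0.0758) did not pass. Relb did pass with library size scaling (adjusted p = 0.0408) and limma-voom (adjusted p = 0.0468), where 3.49% and 6.11% of all genes passed. Both passed without day 5 replicate 5 or 8 or day 14 replicate 5, and Relb also without day 5 replicate 7. With DESeq2, and also without day 5 replicate 5, 7 of 10 passed, against 9.46% and 6.46% of all genes in these fits.

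After delayed repair 7 of 10 members fell in SC libraries, against 4.75% of 9961 genes that fell, 3.34% that rose and 8.09% that passed. Tnf had the largest drop of any member over time, from between 22.5 and 400 CPM (median 150) to between 15.8 and 76.0 CPM (median 22.8), or 4.58-fold (log2 -2.19, SE 0.53, adjusted p = 0.0214). Tnfrsf1b went from between 669 and 1863 CPM to between 353 and 845 CPM (log2 -1.14, SE 0.24, adjusted p = 0.0119). Tnfaip3 (-0.97), Relb (-0.95), Nfkbiz (-0.69), Rel (-0.63) and Nfkbia (-0.55) had adjusted p between 0.0382 and 0.0469.

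This count was 1 with the replicate block, 2 with limma-voom, 2 with no filter, 4 with library size scaling and 5 with edgeR's own filter. Of all genes 2.42%, 7.34%, 3.74%, 9.73% and 5.56% passed in turn. Leaving out 1 of 10 libraries lowered it to between 1 and 4, with 3.67 to 7.30% of all genes passing, namely day 5 replicates 1, 2, 3, 4, 7 and 9 and day 14 replicates 1, 2, 4 and 6, and Tnfrsf1b passed in all 16 such fits. Macrophage markers had negative differences for 12 of 12, none past the threshold, and their sum went from between 417 and 12418 to between 894 and 6063 CPM. SC markers rose in 3 of 10. Of the markers of fibroblasts, which the gate was set to remove, Col1a2, a collagen gene, rose (log2 2.61, SE 0.78, adjusted p = 0.049, 1 of 6 tested), and their sum went from between 17.1 and 3580 CPM (median 523) to between 1604 and 16075 CPM (median 3896). Dendritic cell markers rose in 1 and fell in 1 of 12, and their summed median went from 25792 to 18464 CPM. After immediate repair Col1a2 rose as well (log2 2.09, SE 0.56, adjusted p = 0.0471, 1 of 7 tested), with median fibroblast sums of 1687 and 5641 CPM, and dendritic cell markers fell in 1 of 12, with median sums of 29465 and 23365 CPM. The part of these changes in the members' values was not tested in SC libraries. Without day 5 replicates 9 and 7, the highest in macrophage markers, 2 of 10 members passed, against 4.47% of all genes, namely Tnfrsf1b (log2 -1.0005, SE 0.24, adjusted p = 0.0339) and Relb (log2 -1.05, SE 0.28, adjusted p = 0.0476), and Tnf differed by -1.66 (SE 0.48, adjusted p = 0.0612). Dissociation genes fell in 7 of 19 after delayed and in 2 of 19 after immediate repair.

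The interaction of repair and day passed for 0 of 10 members in SC libraries with edgeR and DESeq2, against 0% of 10923 genes with edgeR, and 0 had an unadjusted p under 0.05, against 4.80% of genes. Of the other pathway lists after immediate repair, 1 of 22 genes of the receptor complex, 1 of 12 subunits and inhibitors, 2 of 13 of the noncanonical pathway and 1 of 27 targets fell and none rose, beside 3.10% of all genes that fell. Cflar fell by 0.83 (SE 0.18), Nfkbid, an atypical IκB gene, by 1.34 (SE 0.18), Traf3, a negative regulator of NIK, by 1.51 (SE 0.22) and Ccl3, a chemokine, by 2.06 (SE 0.42). After delayed repair 3 of 21, 1 of 12, 3 of 13 and 3 of 27 fell in turn, beside 4.75% of all genes, and 1 gene of the noncanonical pathway and 2 targets rose. Traf2 fell by 0.56 (SE 0.12), Traf5 by 1.26 (SE 0.32) and Nfkbid by 1.02 (SE 0.22), while Tnfrsf12a rose by 1.82 (SE 0.37) and Myc by 2.13 (SE 0.43).

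**Figure D3:**
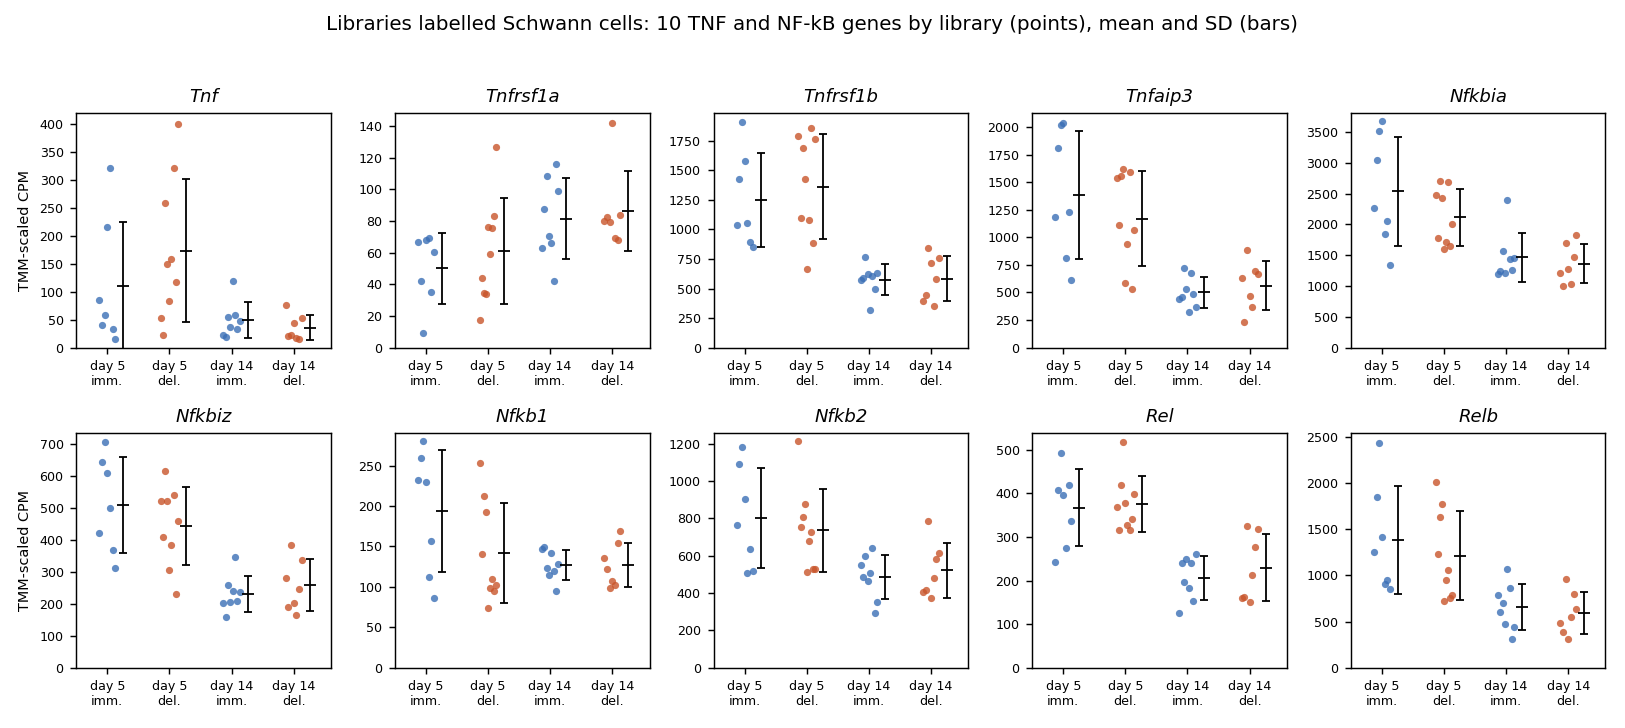
TMM-scaled CPM of the 10 genes in each SC-labelled library (points), with mean and SD (bars), for immediate (imm.) and delayed (del.) repair at days 5 and 14, each panel with its own axis from 0. For 9 of the 10 genes the day 14 means lie below the day 5 means in both repair groups, and for Tnfrsf1a they lie above.

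**Figure D4:**
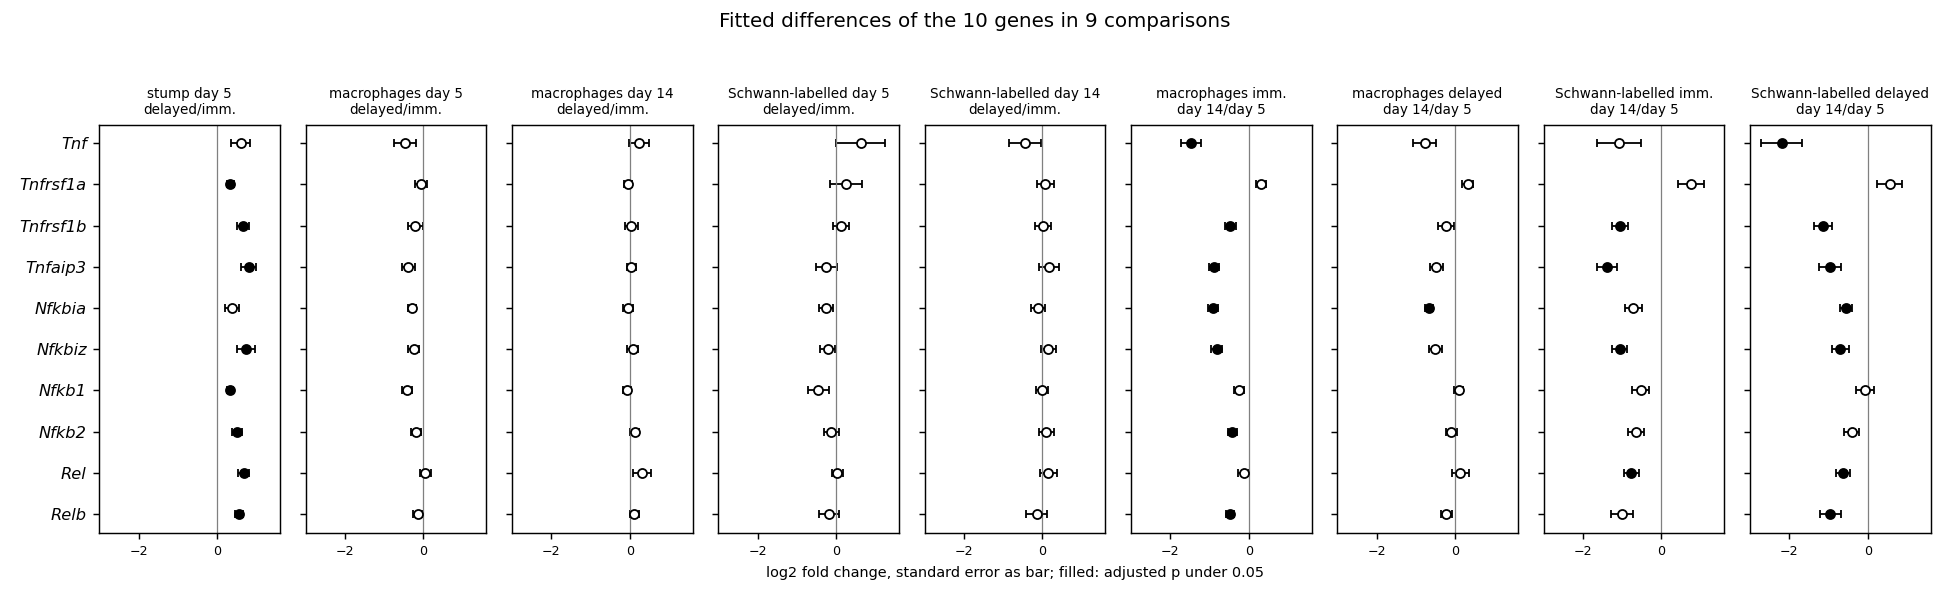
Fitted log2 fold changes of the 10 genes with their standard errors in 9 comparisons, delayed over immediate in the first 5 panels and day 14 over day 5 in the last 4, with filled points for an adjusted p under 0.05. The stump panel holds 8 filled points above 0, the next 4 panels hold none, and the day panels hold 7, 1, 4 and 7 below 0.

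The 2 sorted populations were also compared within the same animals. At day 5, 9 of 10 members differed between SC and macrophage libraries of 16 mice, 3 higher and 6 lower in SC libraries, against 64.5% of 10074 genes that passed, 32.7% higher and 31.9% lower. At day 14, 8 of 10 differed in 15 mice, 3 higher and 5 lower, against 63.3% of 10596 genes that passed, 34.0% higher and 29.3% lower. Most genes differed in this comparison, so a call by itself sets no member apart.

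The ligand and receptors were lower in SC libraries. Tnf was 10.8-fold lower at day 5 (log2 -3.43, SE 0.43) and 13.5-fold lower at day 14 (log2 -3.76, SE 0.25), lower in all 16 and all 15 mice. Tnfrsf1b was lower, at log2 -1.51 (SE 0.12) and -2.29 (SE 0.15), and so was Tnfrsf1a, at log2 -1.42 (SE 0.19) and -0.997 (SE 0.12), again in every mouse (adjusted p between 2.31e-10 and 3.51e-06 over both receptors and days). Tnfaip3 was lower at log2 -0.55 (SE 0.12) at day 5 and -1.08 (SE 0.12) at day 14, in all mice of either day.

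The subunits Rel, Relb and Nfkb2 were higher in SC libraries. Relb ran from 718 to 2436 CPM in SC and from 104 to 224 CPM in macrophage libraries of day 5, and was 6.83-fold higher (log2 2.77, SE 0.10, adjusted p = 1.86e-13), ranking 11th of all genes by p. At day 14 it was 4.34-fold higher (log2 2.12, SE 0.12). Rel was higher by 2.31 (SE 0.10) at day 5 in 16 of 16 mice and by 1.62 (SE 0.15) at day 14 in 14 of 15. Nfkb2 was higher by 0.88 (SE 0.08) and 0.59 (SE 0.09). Nfkb1 did not pass at either day, with 0.24 (SE 0.12, adjusted p = 0.0819) and 0.03 (SE 0.09), but this depended on the setting. With library size scaling it was higher in SC libraries at both days, by 0.49 (adjusted p = 0.00134) and 0.39 (adjusted p = 0.000503). At day 5 it also passed without the 2 mice whose SC libraries were highest in macrophage markers (log2 0.36, adjusted p = 0.0262), without delayed replicate 5 (adjusted p = 0.0424) and without immediate replicate 8 (adjusted p = 0.0119).

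Of the other 2 inhibitors, Nfkbia was lower in SC libraries at day 5 (log2 -0.27, SE 0.09, adjusted p = 0.0144), in 12 of 16 mice, and differed by -0.15 (SE 0.09, adjusted p = 0.152) at day 14, where it passed without immediate replicate 5 (adjusted p = 0.0109). Nfkbiz was lower at day 5 and at day 14 (log2 -0.31, SE 0.09, adjusted p = 0.00436, and log2 -0.57, SE 0.08). At day 5 neither Nfkbia nor Nfkbiz passed without the pairing by animal (adjusted p = 0.0859 and 0.0567), and Nfkbia did not pass without immediate replicate 8 (adjusted p = 0.0859). Scaling by library size alone moved the median of all genes by 0.24 at day 5 and 0.36 at day 14, and with it neither passed as lower at day 5, at -0.03 (adjusted p = 0.747) for Nfkbia and -0.07 (adjusted p = 0.422) for Nfkbiz. At day 14 Nfkbia then differed by 0.21 and passed in the other direction (adjusted p = 0.0192), while Nfkbiz, at -0.20 with this scaling, passed as lower in all 7 alternatives and all 15 fits that left out 1 mouse.

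**Figure D5:**
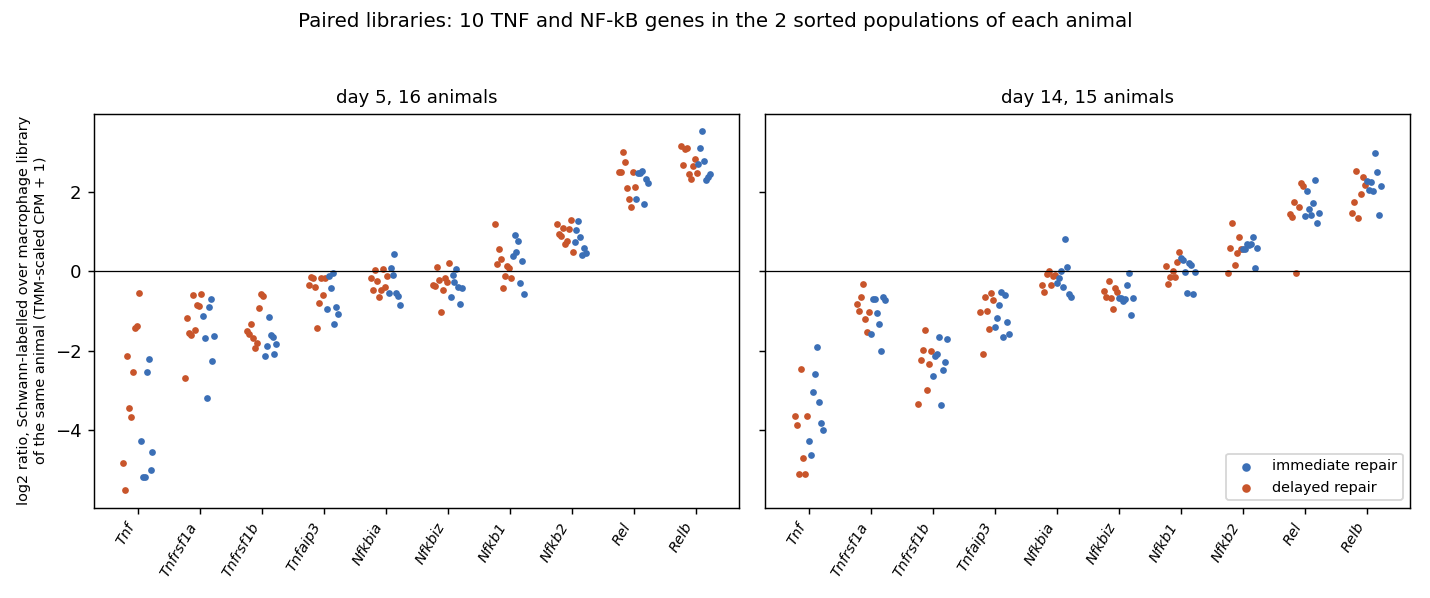
Log2 ratio of TMM-scaled CPM (plus 1) between the SC-labelled and the macrophage library of each mouse, by gene, at day 5 (16 mice) and day 14 (15 mice), colored by repair. Points of Tnf, Tnfrsf1a, Tnfrsf1b and Tnfaip3 lie below 0 in all mice, and those of Relb lie above 0 in all mice.

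Of 13 tested ligands, receptors and kinases of the noncanonical pathway, 8 were higher and 3 lower in SC libraries at both days, where 64.5% and 63.3% of all genes passed. Map3k14 was higher by 4.68 (SE 0.24) and 4.28 (SE 0.17) and Cd40, a costimulatory receptor of antigen-presenting cells, by 3.03 (SE 0.18) and 3.07 (SE 0.19). Birc2, which encodes a ligase that keeps NIK low, was higher by 4.62 (SE 0.19) and 3.71 (SE 0.21), and Traf1 by 2.41 (SE 0.12) and 2.12 (SE 0.09). Dendritic cell markers were higher in 11 of 12 at day 5 and in 10 of 12 at day 14, macrophage markers lower in 12 of 12 at both days, and their part in the members' differences was not tested. SC markers were higher in SC libraries for 8 of 9 tested at day 5 and 9 of 10 at day 14.

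The effect of delay was not shown to differ between the 2 populations. The difference of the delay effect passed for 0 of 10 members at day 5 and at day 14 with edgeR and DESeq2, against 0% of genes with edgeR, and 0 of 10 had an unadjusted p under 0.05 at either day, against 5.63% and 3.24% of genes. The estimate for Tnf at day 5 was 1.40 (SE 0.75), with a 95% interval from -0.06 to 2.86. The interaction of repair and sex at day 5 also passed for 0 of 10 members with edgeR and DESeq2 in macrophages, SC libraries and stump, and 1 of these 30 values had an unadjusted p under 0.05, against 4.19%, 2.67% and 2.22% of genes in turn. It was Rel in macrophages, at -0.50 (SE 0.23, unadjusted p = 0.0415).

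Set per kilobase of all annotated exons of a gene combined, the members ran in a different order in each population. The order depends on these lengths. In macrophages of day 5 Nfkb1, with 12061 exon bases, and Tnfrsf1a, with 2591, both averaged 135 CPM before this scaling. In macrophages of day 5 Nfkbia led at 1724 CPM per kb (SD 296), followed by Tnfrsf1b at 974 (SD 268), Tnf at 730 (SD 304) and Tnfaip3 at 247 (SD 66.2). Tnfrsf1b and Tnf, Tnfrsf1a and Relb, and Nfkb1 and Rel lay within 1 SD of each other, and Nfkb1 and Rel were lowest at 11.2 (SD 2.79) and 10.01 (SD 1.95). In SC libraries of day 5 Nfkbia led again, at 1427 CPM per kb (SD 427). Tnfrsf1b at 344 (SD 108) and Relb at 331 (SD 133) came next and lay within 1 SD of each other, as did Tnfaip3 and Nfkb2, and Tnf stood seventh at 88.9 (SD 74.7), within 1 SD of both its neighbours Nfkbiz and Rel.

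In the stump, which was prepared by another library method and can be compared with the sorted cells only in order, Tnfrsf1a at 53.1 CPM per kb (SD 8.97) and Nfkbia at 50.8 (SD 13.4) lay within 1 SD of each other, as did Nfkbia and Tnfrsf1b, at 40.8 (SD 12.7). Tnf, at 3.16 (SD 1.13), and Rel, at 2.93 (SD 0.88), were lowest. At day 14 Nfkbia still led both sorted populations, at 982 CPM per kb (SD 174) in macrophages and 881 (SD 220) in SC libraries, and in the latter Relb at 161 (SD 59.7) stood second, within 1 SD of Tnfrsf1b at 152 (SD 40.6).

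Pairs of members were also compared across libraries of one kind. After group means were removed, 44 of 45 pairs of members had a positive correlation over the 16 stump libraries (median r 0.61), 34 of 45 over the 31 SC libraries (median 0.44) and 32 of 45 over the 32 macrophage libraries (median 0.18). Over all pairs of genes past the filter, 49.95%, 50.2% and 49.95% were positive in turn. Tnfrsf1a ran against most members in the sorted cells, with r of -0.58 with Tnf and -0.47 with Nfkbiz in macrophages and of -0.72 with Relb and -0.69 with Nfkb2 in SC libraries. These values are descriptions, since libraries share composition and depth. Among 8948 genes in macrophages, those most like Tnf were Cxcl2, a neutrophil chemokine (r 0.86), Ccl4 (r 0.85) and Plk2 (r 0.84). Tnfrsf1b and Relb were each other's closest gene (r 0.91), with Tnip1, a partner of A20, next for both (r 0.91 and 0.90), followed by Slc44a1 for Tnfrsf1b (r 0.90) and Tgm2 for Relb (r 0.90). Nfkb2 was closest to Plek (r 0.89), Tnip1 (r 0.89) and Tnfrsf1b (r 0.88). Tnfaip3 was closest to Cflar (r 0.85), Nfkbiz (r 0.82) and Orai2 (r 0.82), and Nfkbiz to Tnfaip3 (r 0.82), Tnf (r 0.76) and Orai2 (r 0.75). Nfkbia was closest to Gadd45b (r 0.74), Ier3 (r 0.72) and Sertad1 (r 0.71). Tnfrsf1a was closest to Irf2bpl (r 0.73), Plekho1 (r 0.71) and Plekhg2 (r 0.70), Nfkb1 to Pabpc1 (r 0.83), Mrps6 (r 0.80) and Tra2a (r 0.80), and Rel to Atp2b1 (r 0.82), Dennd4a (r 0.82) and Ppp2r5c (r 0.81).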

How the data were processed

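The authors trimmed reads with cutadapt 1.8, aligned them to mm10 with TopHat2 2.1.1 and, per the labels, used Cufflinks 2.2.1 and Cuffnorm. They deposited estimated counts per gene, of which 0.951 to 1.18% were not whole numbers, and the program that wrote these counts is not given in the sources used here. Sorted cells were amplified with SMART-Seq v4, and the stump was prepared by ribosomal RNA depletion.

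Estimated counts were rounded and tested with edgeR 4.0.16 (quasi-likelihood, TMM scaling, R 4.3.3). Genes needed at least 5 CPM in at least 6 libraries, and p-values were adjusted by Benjamini-Hochberg over all genes tested, with a threshold of 0.05. SE was taken from each log2 difference and its F statistic (its size over √F). SC and macrophage libraries of 1 animal share its label and were compared with the animal as a block. Levels per kb use GENCODE vM21 exon lengths, taken as the union of all annotated exons of a gene. DESeq2 1.42.0, limma 3.58.1 (voom), other scalings and filters, sex, the replicate block and leaving out each library were alternatives. Scripts were tested on simulated data. No 2 libraries were identical in 3081 pairs.

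The members and gene lists were chosen with earlier results of these data known. Named genes were the 10 members, up to 3 genes of each pathway list with the smallest p among those that passed in a comparison (where none passed, the 1 with the smallest p), and the 3 genes most like each member by Pearson r of log2(TMM CPM + 1) over the macrophage libraries. Some cell type markers and the genes that overlap members are also named, outside this rule. Floors of 3 counts cover counting error only. The 95% intervals are normal approximations from each estimate and its SE and include the spread between animals. With groups of this size they are slightly too narrow.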

Additional observations from a re-analysis of the deposited data

Results flagged for a closer look

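Of 100 combinations of a member and a group, 6 (6%) held a library whose gap to the next one was large for its group, where chance gives about 1 in 20. Tnf reached 120 CPM in SC immediate day 14 replicate 5, beside 58.4 CPM in the next library and a median of 41.5. In the same library Nfkbia reached 2392 CPM, beside 1566 CPM in the next and a median of 1345. Tnfrsf1a reached 142 CPM in SC delayed day 14 replicate 4, beside 83.8 CPM and a median of 80.4. Rel reached 156 CPM in macrophage delayed day 14 replicate 4, beside 95.5 CPM and a median of 68.4. In the stump, Tnfrsf1b reached 190 CPM in immediate replicate 4, beside 126 CPM and a median of 106, and Nfkbia was lowest in delayed replicate 8, at 55.6 CPM beside 87.0 CPM and a median of 94.3. No interaction of repair with day, sex or cell population passed for a member.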

How the results depend on the processing

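Of 810 member values under alternatives other than leaving out 1 library, 735 kept their direction and call, as did 1601 of 1730 with 1 library left out. The removal of the libraries highest in macrophage or neutrophil markers was chosen after seeing the data. Where a value changed, the cause was not tested. Depth bears on Tnf in the stump, whose lowest library held 1.63 CPM where 3 counts in the smallest library equal 0.769 CPM.

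Shares in parentheses are of all genes in the same fits. In the stump, 9 members passed with limma-voom (36.3%), against 8 (26.3%). In macrophages after delayed repair, 3 members fell over time with DESeq2 (10.4%) and 3 with limma-voom (11.96%), 2 passed with a sex covariate (7.89%), Nfkbia as lower and Tnfrsf1a as higher, and 1 to 4 passed with 1 library left out (4.37 to 7.91%), against 1 (6.41%). In SC libraries after immediate repair, 7 passed with DESeq2 (9.46%) and 3 to 7 with 1 library left out (2.23 to 6.46%), against 4 (3.81%). In SC libraries after delayed repair, against 7 (8.09%), the count was 4 with library size scaling (9.73%), 2 with no filter (3.74%), 2 with limma-voom (7.34%), 2 without the 2 libraries highest in macrophage markers (4.47%) and 1 to 7 with 1 library left out (3.67 to 11.9%). With edgeR's own filter it was 5 (5.56%).

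Replicate numbers belong to different animals across repair groups and days, and same-numbered libraries correlated between -0.28 and 0.50, with 0 of 9 comparisons having every pair over 0.1 and 0 in which every library matched its own number best. With the replicate block, 8 members passed in the stump (17.8% of all genes), 6 in macrophages after immediate repair over time (10.8%), 4 in SC libraries after immediate repair (1.97%) and 1 in SC libraries after delayed repair (2.42%).

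Reversed values, in log2 units, were of members that did not pass. For delayed against immediate macrophages at day 5 they were 0.032 (library size scaling) and 0.0045 (voom) for Tnfrsf1a and -0.00035 (sex covariate) and -0.033 (replicate block) for Rel. At day 14, voom gave -0.018 for Tnfrsf1b and 0.069 for Nfkbia. In SC libraries of day 5 they were -0.020 (sex covariate) and -0.025 (without 2 libraries) for Tnfrsf1a, -0.025 (without 2 libraries) for Tnfrsf1b and -0.020 (voom) for Rel. At day 14, voom gave -0.049 for Tnfrsf1a, 0.082 for Nfkbia, 0.050 for Nfkb1 and 0.067 for Relb, the replicate block gave -0.14 for Tnfrsf1b, and library size scaling gave 0.033 for Nfkb1. Over time, Rel was 0.032 in immediate macrophages (library size scaling) and -0.16 in delayed ones (voom), and Nfkb1 was 0.17 (library size scaling) and 0.26 (voom) in delayed SC libraries. Between SC and macrophage libraries at day 14, Nfkbia was 0.21 with library size scaling, where it passed, and Nfkb1 was -0.0048 (edgeR's own filter) and -0.0041 (no filter).

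With 1 library left out, members that changed sign ran as follows. For delayed against immediate macrophages at day 5, Rel ran from -0.033 to 0.10 and Tnfrsf1a from -0.15 to 0.018. At day 14, Nfkbia ran from -0.11 to 0.044, Nfkbiz from -0.00050 to 0.14, Tnfaip3 from -0.031 to 0.075, Tnfrsf1a from -0.10 to 0.0097 and Tnfrsf1b from -0.055 to 0.11. In SC libraries of day 5, Rel ran from -0.049 to 0.085. At day 14, Nfkb1 ran from -0.087 to 0.053, Nfkb2 from -0.017 to 0.18, Nfkbia from -0.19 to 0.023, Tnfrsf1a from -0.070 to 0.17 and Tnfrsf1b from -0.088 to 0.11. Over time, Rel ran from -0.12 to 0.21 in delayed macrophages and Nfkb1 from -0.15 to 0.077 in delayed SC libraries. Between SC and macrophage libraries at day 14, Nfkb1 ran from -0.0024 to 0.078. Library size scaling moved the median of all genes by 0.16 in immediate macrophages and by 0.18 and 0.20 in immediate and delayed SC libraries over time.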
